A study of Saccharomyces cerevisiae with 6 samples.

Results

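The genes described here encode the mitochondrial respiratory chain and the ATP synthase of budding yeast, Saccharomyces cerevisiae: 40 nuclear genes of 5449 tested. They were taken from a named list of subunits, and each had 1 probe set on the array. They comprise 3 NADH dehydrogenases, 4 subunits of complex II, 9 of complex III, 2 cytochromes c, 9 subunits of complex IV and 13 of the ATP synthase. Messenger RNA was measured on Affymetrix arrays in 3 samples of a strain with BAS1 deleted and in 3 samples of FY4, the wild-type reference. Bas1 is a Myb-family activator best known for purine and histidine synthesis genes. Both strains grew exponentially, in batch, in minimal medium with glucose at 30°C, and were harvested at the same density. FY4 belongs to the S288C background, whose HAP1 gene, for a heme-dependent activator of several genes below, is known to be interrupted by a transposon. The labels give neither the marker used for the deletion nor the number of clones, nor whether replicates came from different cultures, so the p-values measure the spread between these samples, which may be technical.

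Yeast has no multisubunit complex I. Single-subunit NADH dehydrogenases and complex II (succinate dehydrogenase) pass electrons to ubiquinone, complex III (the cytochrome bc1 complex) passes them on to cytochrome c, and complex IV (cytochrome c oxidase) to oxygen. The proton gradient built by complexes III and IV drives the ATP synthase, a rotary enzyme with a soluble F1 head and a membrane sector. In glucose medium yeast mostly ferments, and many of these genes are known to be held low by glucose and activated through the Hap2/3/4/5 complex when glucose runs out.

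Levels are given as log2 of the deposited intensities, and a difference is the mean of the deletion arrays minus the mean of the wild-type arrays. A gene was called when limma's moderated test gave a Benjamini-Hochberg adjusted p under 0.05 over all 5449 genes. Background was set so that 95% of probe sets annotated to a gene absent from the budding yeast table lay under it. BAS1 itself read 4.86, 4.76 and 4.86 in the deletion arrays, all below background, and 11.18, 10.96 and 11.14 in the wild-type arrays, at least 29.1-fold lower in the deletion strain. The median log2 difference over all genes was 0.11, and 17 of 17 control probe sets for ribosomal RNA had lower means in the deletion arrays, with a median log2 difference of -3.09. The poly-A spike controls were low in 3 arrays (deletion 1, wild type 1 and wild type 2) and high in the other 3. The log2 ratio of 3′ to 5′ signal separated the strains without overlap in 5 of the 7 control transcripts compared. The change was 0.37 for SRB4, 0.19 for WBP1, 0.04 for ACT1, -0.07 for RIP1 and -0.22 for TDH1. URA3 also has 3′ and 5′ probe sets but was left out of this count. Its log2 difference was -0.65 at the 3′ end and -0.87 at the 5′ end. The mean URA3 ratio was thus also higher in the deletion arrays. The part of the rRNA, spike and 3′ to 5′ differences in the results below was not tested. All 40 genes read above background in all 6 arrays.

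As these are bulk samples, more RNA per cell and more cells with the RNA cannot be told apart. Of the 40 genes, 36 rose in the deletion strain, none fell, and 4 did not pass the test (COX5B, ATP15, ATP18 and ATP19). Over all genes tested, 39.6% were called higher and 19.8% lower. The 40 genes had a median log2 difference of 1.04, a 2.06-fold higher level, against 0.11 for all genes. At least a 2-fold rise was called in 21 of the 40, where the share over all genes was 8.33%. In 36 of the 40 the lowest deletion array lay above the highest wild-type array, an arrangement found in 43.7% of all genes. Centring each array on its median, quantile normalization and cyclic loess each left 36 genes called higher and none lower, while the shares of all genes called higher and lower were 27.2% and 33.1% after centring, 24.9% and 35.5% after quantile normalization, and 30.1% and 29.4% after cyclic loess. The median difference of the 40 genes was 0.88 after centring, 0.92 after quantile normalization and 0.99 after cyclic loess. Within the 3 low-spike arrays 31 of the 40 were called higher, where 20.2% of all genes were, and within the 3 high-spike arrays 39 were, where 33.1% of all genes were. With spike level as a block 39 were called higher, against 40.8% of all genes, and with the replicate number as a block 34 were, against 39.1%. The 36 called genes were higher in the deletion arrays within both spike levels. These counts describe the list and carry no test of it as a whole.

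**Figure D1:**
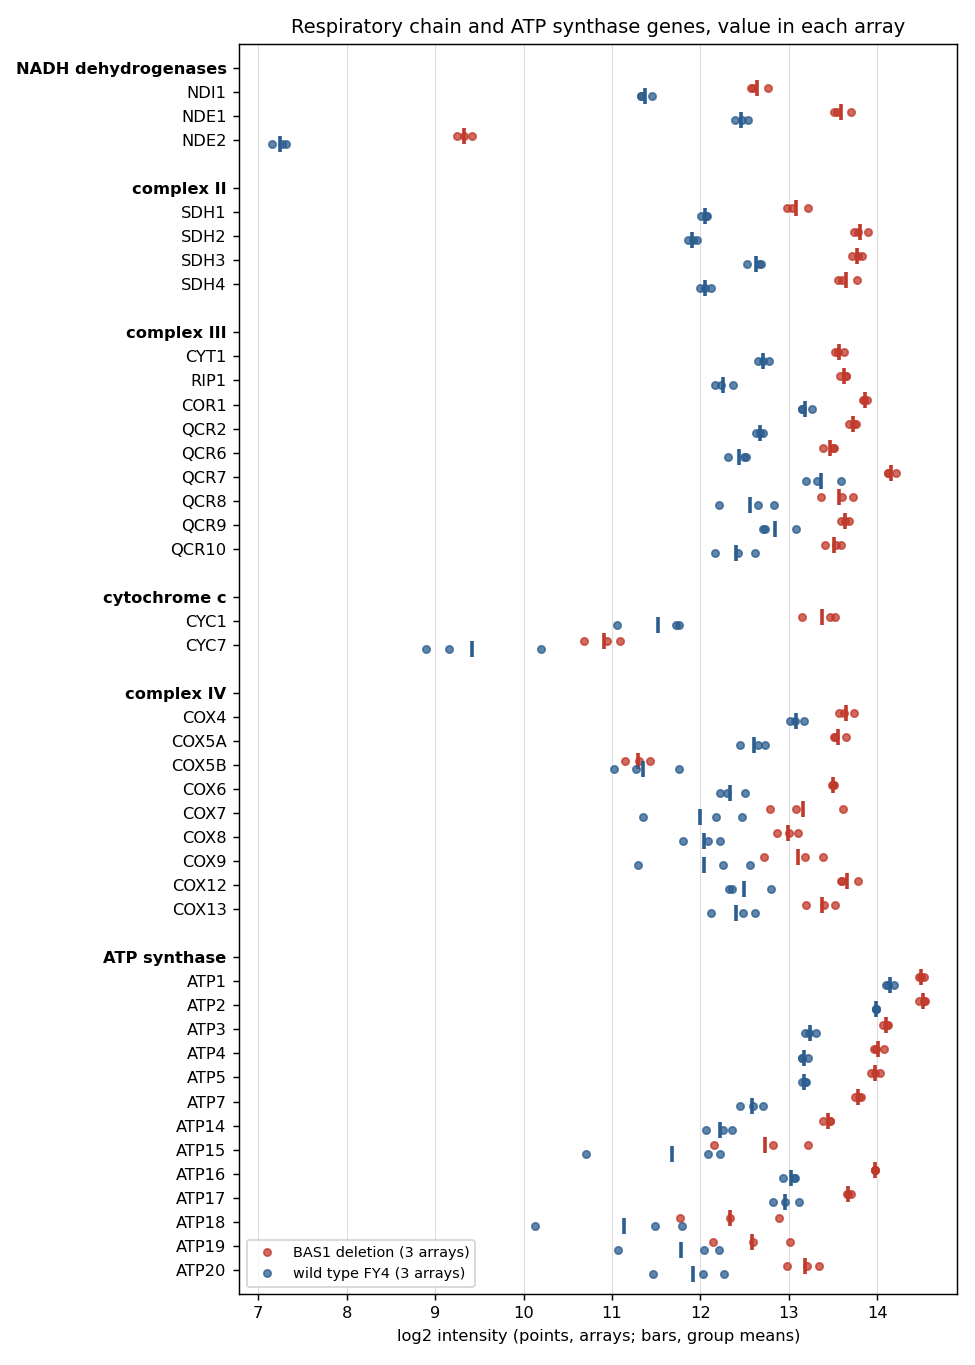
Log2 intensity of each of the 40 genes in every array, with the 3 BAS1 deletion arrays in red above the 3 wild-type arrays in blue and bars at the group means. The red points lie right of the blue ones without overlap in 36 genes, and COX5B, ATP15, ATP18 and ATP19 are the 4 that overlap.

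All 3 NADH dehydrogenase genes rose. NDI1 encodes the internal enzyme, which oxidises NADH in the mitochondrial matrix. It read 12.77, 12.57 and 12.60 in the deletion arrays and 11.33, 11.45 and 11.33 in the wild-type arrays, so every deletion array lay more than 1 log2 unit above every wild-type array. The rise was 2.42-fold (log2 difference 1.27, SE 0.07, limma adjusted p = 2.7e-05). NDE1 and NDE2 encode the external enzymes, which oxidise cytosolic NADH at the outer face of the inner membrane. NDE1 read 13.71, 13.54 and 13.51 in the deletion arrays and 12.47, 12.53 and 12.39 in the wild-type arrays, a 2.18-fold rise (log2 difference 1.12, SE 0.07). NDE2 read 9.42, 9.24 and 9.32 in the deletion arrays and 7.27, 7.32 and 7.16 in the wild-type arrays. Its 4.23-fold rise (log2 difference 2.08, SE 0.07, limma adjusted p = 4.7e-06) was the largest of the 40 genes, and its arrays spanned 0.17 log2 units in the deletion strain and 0.16 in wild type. The rank depended on the scaling. After quantile normalization NDE2 had a difference of 1.35, under 1.84 for SDH2, and after cyclic loess 1.76, under 1.85 for SDH2. The wild-type level of NDE2 was low, at percentile 4.9 of all genes.

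All 4 genes of complex II rose at least 2-fold, with a median log2 difference of 1.37. SDH2, the iron-sulfur subunit, read 13.89, 13.78 and 13.73 in the deletion arrays and 11.91, 11.96 and 11.86 in the wild-type arrays. SDH1, the flavoprotein subunit that binds succinate, read 13.22, 12.98 and 13.03 in the deletion arrays and 12.06, 12.07 and 12.004 in the wild-type arrays. The groups were far apart in both, yet the sizes were unequal: the log2 difference was 1.89 (SE 0.06) for SDH2 and 1.03 (SE 0.07) for SDH1. SDH3 and SDH4 encode the membrane anchors, which hold the ubiquinone site. SDH4 read 13.77, 13.55 and 13.60 in the deletion arrays and 12.12, 12.06 and 11.996 in the wild-type arrays, and rose 3.0-fold. SDH3 read 13.82, 13.71 and 13.78 in the deletion arrays and 12.66, 12.68 and 12.53 in the wild-type arrays, and rose 2.22-fold. Within each pair, catalytic and anchor, 1 gene thus had a larger difference than its partner, and the gaps between partners were several times the standard errors, although they were not tested.

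All 9 genes of complex III rose, by 1.60-fold to 2.58-fold, with a median log2 difference of 1.0. RIP1 (YEL024W), the Rieske iron-sulfur protein that takes electrons from ubiquinol, read 13.65, 13.64 and 13.58 in the deletion arrays and 12.23, 12.36 and 12.16 in the wild-type arrays. Its log2 difference was 1.37 (SE 0.06, limma adjusted p = 1.4e-05). The array carries 3 further control probe sets that bear the name RIP1, for the 3′ end, middle and 5′ end of a transcript, and which gene that name denotes is not given in the annotation used here. They read 13.33 ± 0.02, 13.38 ± 0.04 and 13.36 ± 0.03 in the deletion arrays and 12.09 ± 0.07, 11.87 ± 0.10 and 12.04 ± 0.07 in the wild-type arrays (SD, n = 3 each). Their log2 differences of 1.24, 1.51 and 1.31 lie on both sides of that of the RIP1 gene's own probe set.

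CYT1, cytochrome c1, the other catalytic subunit of complex III measured here, rose 1.81-fold (log2 difference 0.86, SE 0.05). Of the core proteins, which form the large matrix-facing part of the complex, QCR2 rose 2.07-fold and COR1 1.60-fold. COR1 had the smallest rise in the complex, with arrays close together: 13.88, 13.85 and 13.84 in the deletion strain and 13.15, 13.15 and 13.26 in wild type. The small subunits followed the same direction. QCR10 read 13.54, 13.41 and 13.59 in the deletion arrays and 12.43, 12.62 and 12.16 in the wild-type arrays (log2 difference 1.11, SE 0.12). QCR7, whose product packs against cytochrome b, read 14.12, 14.13 and 14.21 in the deletion arrays and 13.32, 13.59 and 13.19 in the wild-type arrays (log2 difference 0.79, SE 0.10). The wild-type arrays were further apart than the deletion arrays in both. QCR6, QCR8 and QCR9 rose by 1.03, 1.0 and 0.80 on the log2 scale, and the standard error of QCR8, 0.17, was the largest in the complex.

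Both cytochrome c genes rose. CYC1, isoform 1, the main form in aerobic cells, read 13.52, 13.15 and 13.47 in the deletion arrays and 11.76, 11.72 and 11.06 in the wild-type arrays. The groups were separated by more than 1 log2 unit, and the rise was 3.64-fold (log2 difference 1.86, SE 0.21, limma adjusted p = 4.9e-04). CYC7, isoform 2, known as the form favoured when oxygen is scarce and induced by stress, read 10.95, 10.68 and 11.09 in the deletion arrays and 8.89, 10.19 and 9.16 in the wild-type arrays. Wild-type array 2 stood more than 1 log2 unit above the other two, and the rise of 2.8-fold (log2 difference 1.49) had a standard error of 0.33 (limma adjusted p = 0.00905). Without wild-type replicate 2 the CYC7 difference was 1.88. Its call ended within the 3 low-spike arrays (1.40, adjusted p = 0.174) and with deletion replicate 2 and wild-type replicate 3 left out together (1.47, adjusted p = 0.0566).

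Of the 9 genes of complex IV, 8 rose and 1, COX5B, did not pass the test. The median log2 difference was 0.97. COX12, a subunit on the intermembrane-space side, read 13.60, 13.59 and 13.78 in the deletion arrays and 12.36, 12.80 and 12.32 in the wild-type arrays, and rose 2.24-fold (log2 difference 1.16, SE 0.14). COX6, a subunit on the matrix side, rose 2.23-fold with deletion arrays that lay within 0.02 log2 units of each other (log2 difference 1.16, SE 0.08). COX4, the zinc-binding subunit, had the smallest rise, 1.47-fold, with 13.73, 13.62 and 13.57 in the deletion arrays and 13.07, 13.17 and 13.01 in the wild-type arrays. COX8 and COX13 rose 1.94-fold and 1.95-fold.

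COX7 and COX9, short membrane-spanning subunits, passed the threshold narrowly. COX7 read 13.08, 12.78 and 13.61 in the deletion arrays and 12.18, 12.47 and 11.35 in the wild-type arrays (log2 difference 1.16, SE 0.33, limma adjusted p = 0.0235). COX9 read 13.19, 12.72 and 13.38 in the deletion arrays and 12.25, 12.56 and 11.29 in the wild-type arrays (log2 difference 1.06, SE 0.34, limma adjusted p = 0.0361). In both, wild-type array 3 was far the lowest of the 6 arrays and deletion array 2 the lowest of its strain, and the groups did not overlap. Leaving out deletion replicate 1 or 3 ended both calls, with adjusted p of 0.0524 and 0.0720 for COX7 and 0.0893 and 0.109 for COX9. Leaving out wild-type replicate 1 ended that of COX9 (adjusted p = 0.0582). Without wild-type replicate 3, both kept their call with smaller differences, 0.84 for COX7 and 0.69 for COX9.

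COX5A and COX5B encode interchangeable forms of subunit 5, of which COX5A serves in aerobic cells and COX5B is known to be repressed by Rox1 when oxygen and heme are present. COX5A read 13.65, 13.52 and 13.50 in the deletion arrays and 12.65, 12.73 and 12.44 in the wild-type arrays, and rose 1.93-fold (log2 difference 0.95, SE 0.09, limma adjusted p = 2.1e-04). COX5B read 11.31, 11.15 and 11.43 in the deletion arrays and 11.27, 11.76 and 11.03 in the wild-type arrays. The COX5B groups overlapped fully, with all deletion values inside the wild-type range, and the log2 difference was -0.05 (SE 0.19, limma adjusted p = 0.816). With each array left out in turn it ran from -0.22 to 0.15.

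Of the 13 ATP synthase genes, 10 rose and 3 did not pass the test. The median log2 difference was 0.86, the lowest of the 6 groups. ATP1 and ATP2 encode the alpha and beta subunits, which form the catalytic ring of F1, and they had the smallest called rises of the 40 genes. ATP1 read 14.52, 14.49 and 14.47 in the deletion arrays and 14.12, 14.10 and 14.18 in the wild-type arrays, a 1.28-fold rise (log2 difference 0.36, SE 0.05, limma adjusted p = 8.8e-04). ATP2 read 14.54, 14.53 and 14.47 in the deletion arrays and 13.99, 13.99 and 13.98 in the wild-type arrays, a 1.44-fold rise (log2 difference 0.53, SE 0.04, limma adjusted p = 1.3e-04). The arrays of each strain lay close together for both genes, so these small rises exceeded the spread. Their size depended on the scaling. Centring the arrays gave 0.20 for ATP1 (limma adjusted p = 0.0213) and 0.37 for ATP2. Quantile normalization gave 0.38 and 0.55, and cyclic loess 0.37 and 0.54. Of the central rotor, ATP3 (gamma) rose 1.81-fold and ATP16 (delta) 1.93-fold.

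All 4 genes of the stator stalk, which keeps the F1 head from turning, rose. ATP14 (subunit h) read 13.46, 13.39 and 13.47 in the deletion arrays and 12.25, 12.36 and 12.06 in the wild-type arrays, a 2.32-fold rise (log2 difference 1.21, SE 0.08). ATP7 (subunit d) rose 2.31-fold, ATP4 (subunit b) 1.79-fold and ATP5, the oligomycin sensitivity-conferring protein, 1.74-fold. Of the other membrane-sector subunits, ATP20 (subunit g), which takes part in dimer formation, had the largest rise of the enzyme. It read 13.21, 12.98 and 13.35 in the deletion arrays and 12.03, 12.27 and 11.46 in the wild-type arrays, a 2.39-fold rise (log2 difference 1.26, SE 0.21, limma adjusted p = 0.00282). ATP17 (subunit f) rose 1.64-fold.

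The 3 ATP synthase genes that did not pass the test had differences within the range of the called ones but a wide spread. ATP15, the epsilon subunit of F1, read 12.82, 12.16 and 13.22 in the deletion arrays and 12.23, 12.09 and 10.71 in the wild-type arrays (log2 difference 1.06, SE 0.46, limma adjusted p = 0.0888). ATP18 (subunit i/j) read 12.34, 11.77 and 12.89 in the deletion arrays and 11.79, 11.48 and 10.13 in the wild-type arrays (log2 difference 1.20, SE 0.48, limma adjusted p = 0.0724). ATP19 (subunit k) read 12.59, 12.14 and 13.02 in the deletion arrays and 12.04, 12.21 and 11.07 in the wild-type arrays (log2 difference 0.81, SE 0.35, limma adjusted p = 0.0885). In each of them deletion array 2 was the lowest of its strain and overlapped the wild-type range, and wild-type array 3 was far below the other wild-type arrays.

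**Figure D2:**
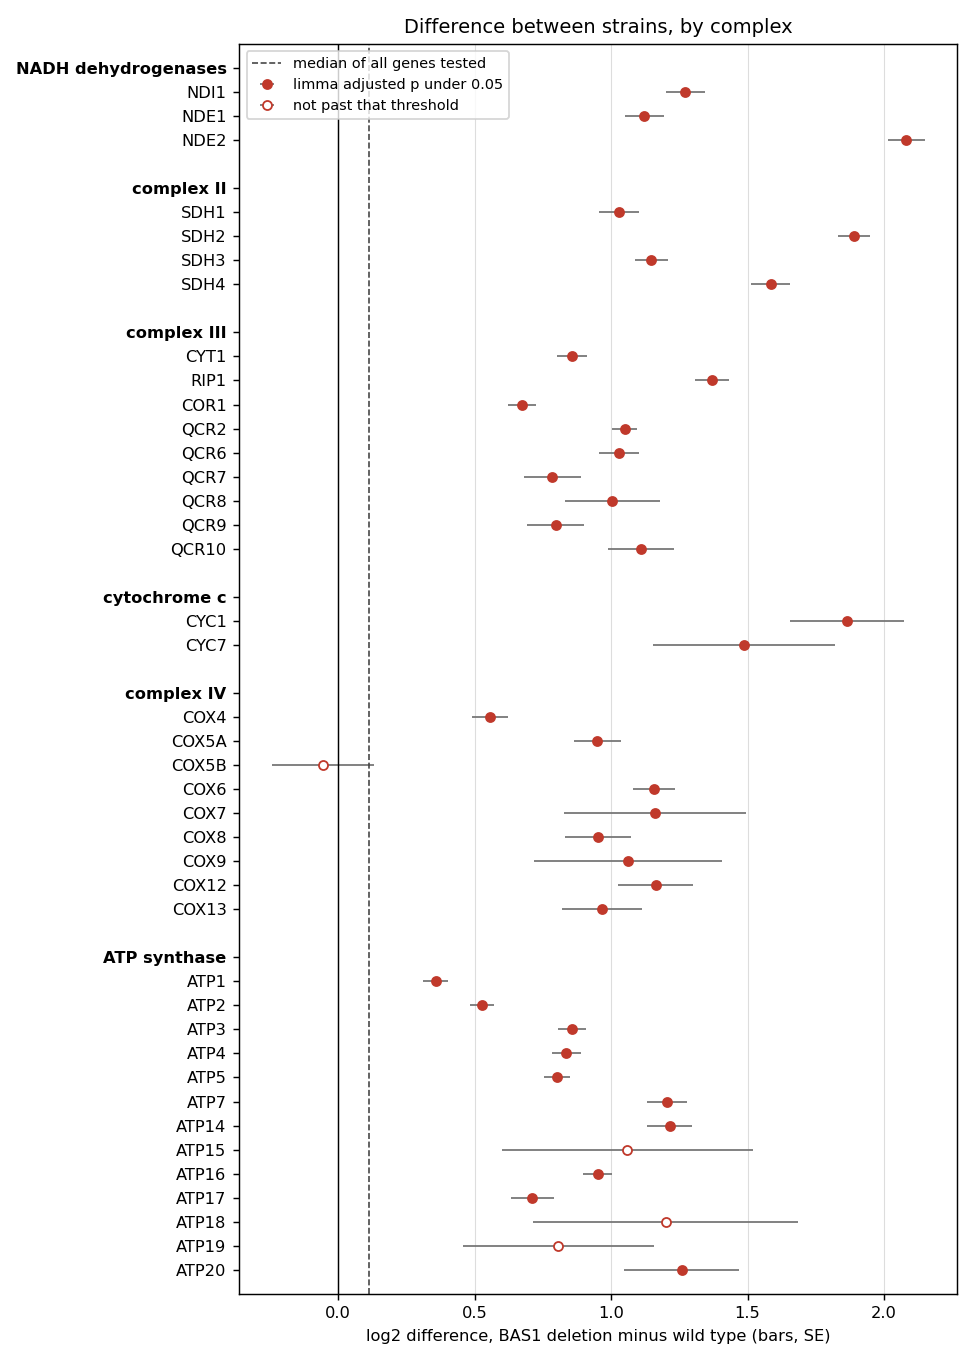
Log2 difference of each gene, BAS1 deletion minus wild type, with its standard error, grouped by complex; filled points passed the limma threshold and open points did not. The dashed line marks the median of all genes tested, 0.11, and 39 of the 40 points lie to its right.

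Set side by side, the entry points and the mobile carrier had larger median differences than the pumps and the ATP synthase. The median log2 difference was 1.27 for the NADH dehydrogenases, 1.37 for complex II and 1.68 for cytochrome c, against 1.0 for complex III, 0.97 for complex IV and 0.86 for the ATP synthase. Complex IV without COX5B had a median of 1.01. The ranges overlapped. RIP1 of complex III, at 1.37, lay above NDI1, NDE1, SDH1 and SDH3. ATP20 of the ATP synthase, at 1.26, and COX12 of complex IV, at 1.16, lay above NDE1 (1.12), SDH1 (1.03) and SDH3 (1.15). NDE2, SDH2, SDH4, CYC1 and CYC7 lay above every gene of complexes III and IV and of the ATP synthase. The order of the group medians was not tested, and 2 of the 6 groups hold fewer than 4 genes. The 3 groups with the largest medians also had the lowest median wild-type levels. These were 11.37 for the NADH dehydrogenases, 12.05 for complex II and 10.47 for cytochrome c. Complex III had 12.67, complex IV 12.34 and the ATP synthase 12.96. The part of brightness in the order of the groups was not tested. The same 3 groups led after array centring, with 1.12 for the NADH dehydrogenases, 1.21 for complex II and 1.52 for cytochrome c, against 0.85 for complex III, 0.81 for complex IV and 0.70 for the ATP synthase.

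All 6 groups were shifted upward in each deletion array. The median over the 40 genes, relative to each gene's wild-type mean, was 1.08, 0.91 and 1.14 in the deletion arrays and 0.02, 0.12 and -0.11 in the wild-type arrays. For complex II it was 1.46, 1.29 and 1.35 in the deletion arrays and 0.03, 0.04 and -0.06 in the wild-type arrays. Every deletion array lay far outside the wild-type spread, and the wild-type spread was widest for cytochrome c, from -0.36 to 0.49.

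The size of the difference went with brightness. Across the 40 genes the Spearman correlation of the log2 difference with the wild-type level was -0.68, and with the deletion level it was -0.41. Over all 5449 genes these correlations were -0.34 and -0.04. The points share the same 6 arrays, the wild-type level is part of the difference, and genes are not independent replicates, so the values only describe the list. ATP1, at a wild-type level of 14.14 ± 0.04 (SD, n = 3), was the brightest of the 40, and the brightest gene on the wild-type arrays averaged 15.04. The part of signal compression at the top of the scale in the small ATP1 and ATP2 differences was not tested.

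The paired isoforms allow a comparison within each array, since the log2 ratio of 2 probe sets is free of any shift common to the array. The value of such a ratio has no meaning across genes, and only its change between strains is read. With 3 against 3 arrays the smallest p of the exact two-sided permutation test is 0.1, so no ratio can pass 0.05. COX5A minus COX5B was 2.34, 2.37 and 2.07 in the deletion arrays and 1.38, 0.97 and 1.41 in the wild-type arrays. The ratio was higher in 3 of 3 deletion arrays, by 1.01 log2 units (SE 0.17, exact permutation p = 0.1), a shift of 2.01-fold toward COX5A. NDE1 minus NDE2 was 4.29, 4.29 and 4.19 in the deletion arrays and 5.20, 5.21 and 5.23 in the wild-type arrays. It was lower in 3 of 3 deletion arrays, with a change of -0.96 (SE 0.04, exact permutation p = 0.1), a 1.94-fold shift toward NDE2. The size of that change depended on the scaling, at -0.30 after quantile normalization and -0.66 after cyclic loess.

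CYC1 minus CYC7 was 2.57, 2.47 and 2.38 in the deletion arrays and 2.87, 1.53 and 1.90 in the wild-type arrays. The deletion values fell inside the wild-type range, and the change was 0.38 (SE 0.40, exact permutation p = 0.4). This does not show that the isoforms rose equally: with 1 array left out in turn the change ran from 0.091 to 0.76. Over the 6 isoform pairs compared, the Benjamini-Hochberg adjusted p of the exact permutation test was 0.4 for CYC1 minus CYC7 and 0.12 for each of the other 5.

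Pairs of aerobic and hypoxic isoforms outside the respiratory chain were read in the same way. PET9 and AAC3 encode aerobic and hypoxic ADP/ATP carriers. PET9 rose 1.31-fold (log2 difference 0.39) and AAC3 fell 1.88-fold (log2 difference -0.91, SE 0.08), so that their ratio changed by 1.29 (SE 0.08). HYP2 and ANB1 encode aerobic and hypoxic forms of the translation factor eIF5A. HYP2 had a log2 difference of 0.00 (SE 0.05, limma adjusted p = 0.981), ANB1 fell 2.34-fold (log2 difference -1.23, SE 0.12), and the ratio changed by 1.23 (SE 0.11). Of the HMG-CoA reductase genes of sterol synthesis, HMG2, the form known to be favoured at low oxygen, fell 1.28-fold, HMG1 had a log2 difference of -0.07 (limma adjusted p = 0.221), and the ratio changed by 0.29 (SE 0.04). After centring HMG1 was also called lower (-0.22, adjusted p = 0.00735). In each of these 3 pairs, as in COX5A over COX5B, all deletion ratios lay above all wild-type ratios (exact permutation p = 0.1 each). Of the hypoxic members of these pairs, AAC3, ANB1 and HMG2 fell, COX5B did not pass the test, and CYC7 rose.

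**Figure D3:**
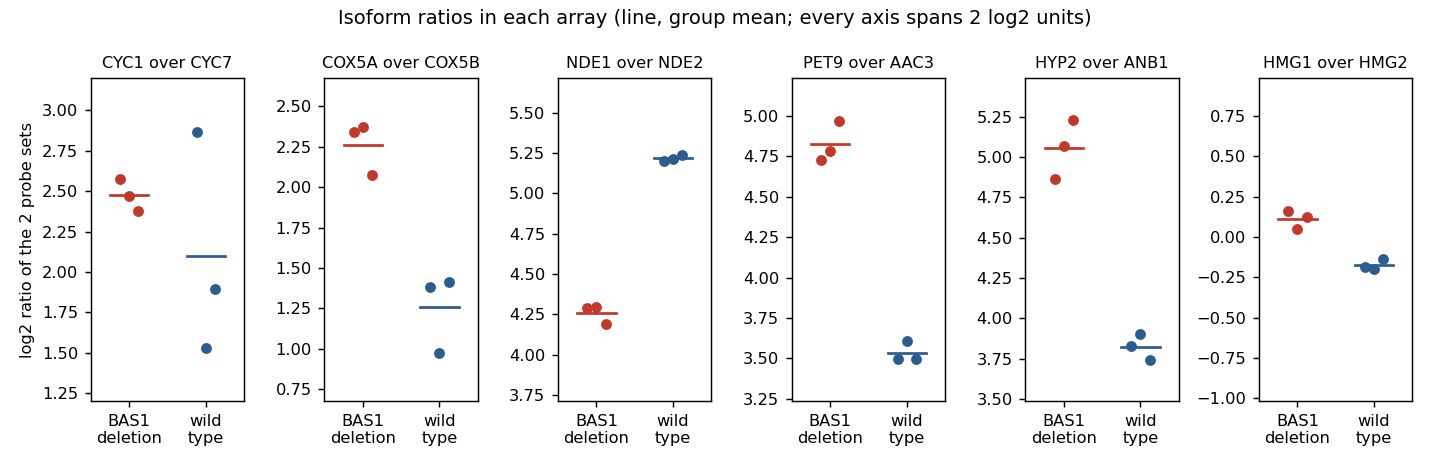
Log2 ratio of the 2 probe sets of each isoform pair in the 3 BAS1 deletion arrays (red) and the 3 wild-type arrays (blue), with lines at the group means; every axis spans 2 log2 units. The deletion points lie above the wild-type points in COX5A over COX5B, PET9 over AAC3, HYP2 over ANB1 and HMG1 over HMG2, below them in NDE1 over NDE2, and within their range in CYC1 over CYC7.

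The spread between the arrays of a strain went with gene length. Lengths are gene spans in the RefSeq table, introns included, and the bounds of 300 and 600 bases were set after the values were seen. Of the 40 genes, 9 spanned under 300 bases (180 to 297), 17 spanned 306 to 597 bases and 14 spanned 600 bases or more. The median standard error was 0.33 log2 units in the shortest group, 0.08 in the middle and 0.05 in the longest. The range between the wild-type arrays had a median of 1.12 in the shortest group and 0.10 in the longest, and between the deletion arrays 0.66 and 0.10. The Spearman correlation of length with standard error was -0.84 over the 40 genes, and -0.39 over all 5449. Length went less with the size of the difference (Spearman correlation -0.12 over the 40 genes).

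The same arrays were low in the short genes. Deletion array 2 was the lowest of its strain in 9 of the 9 shortest genes and in 3 of the 14 longest. Wild-type array 3 was the lowest of its strain in 9 of the 9 shortest and in 7 of the 14 longest. Among all 235 tested genes under 300 bases, deletion array 2 was lowest in 152 and wild-type array 3 in 146, so this was not limited to genes of respiration. For the 3 short genes that were not called, the strain difference varied with the arrays set against each other. That of ATP18 was 0.70 among low-spike arrays and 2.21 among high-spike ones, where wild-type array 3 is the only wild-type array. ATP15 gave 0.67 and 1.98, and ATP19 gave 0.46 and 1.51. With deletion replicate 2 and wild-type replicate 3 left out together, limma called ATP15 (0.86, adjusted p = 0.0142), ATP18 (0.98, adjusted p = 0.0271) and ATP19 (0.68, adjusted p = 0.0321). ATP15, ATP18 and ATP19 also passed within the high-spike arrays (adjusted p of 0.0354, 0.0313 and 0.0436) and with spike level as a block (adjusted p of 0.0363, 0.0382 and 0.0480). Within the low-spike arrays ATP15 passed (adjusted p = 0.0270), while ATP18 and ATP19 did not (adjusted p of 0.0598 and 0.0604). ATP18 passed without wild-type replicate 1 as well (1.53, adjusted p = 0.0482). CYC7 lost its call when deletion replicate 2 and wild-type replicate 3 were left out, where 38 of the 40 genes were called higher. What made short genes vary between arrays was not tested.

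**Figure D4:**
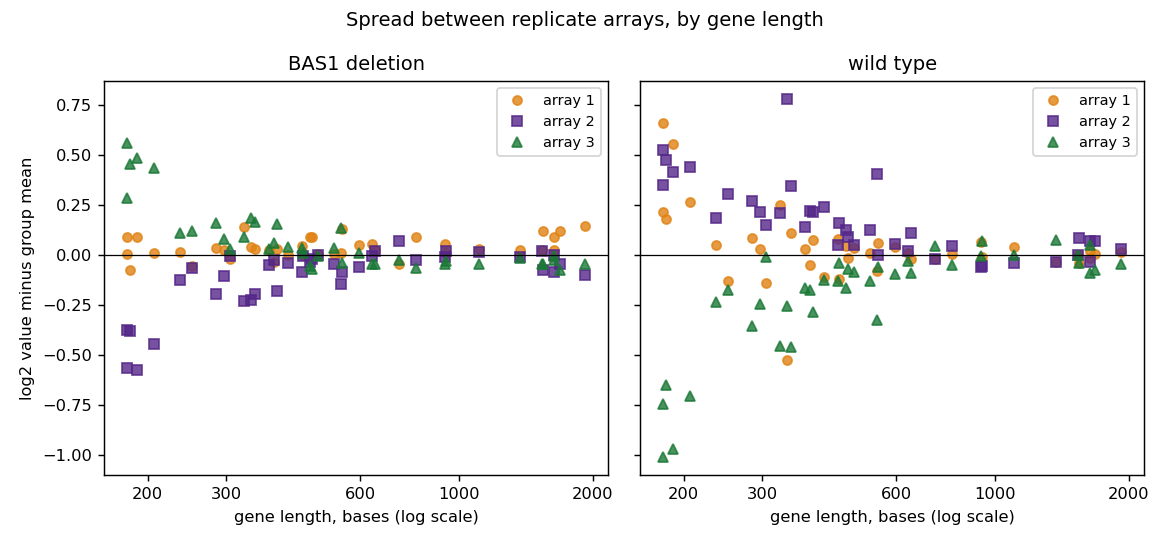
Log2 value of each of the 40 genes in each array, minus the mean of its strain, against gene length on a log scale, with the BAS1 deletion arrays on the left and the wild-type arrays on the right. Points fan out toward short genes, where deletion array 2 and wild-type array 3 lie below 0 for all 9 genes under 300 bases, and close in on 0 above 600 bases.

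Other genes of respiration were read in lists of their own. Of 115 such genes with a probe set, 46 were called higher and 22 lower, close to the 39.6% and 19.8% of all genes. After centring, the shares of all genes were 27.2% and 33.1%. The counts of each list below are to be read against these shares. The 7 subunits encoded in the mitochondrial genome had no probe set in the annotation and were not analysed here. Of 7 further nuclear subunits, inhibitors and paralogs, 5 rose. TIM11, subunit e of the ATP synthase, rose 1.98-fold. INH1 and STF1, which encode inhibitors of the F1 ATPase, rose 2.82-fold and 3.37-fold (log2 differences 1.49 and 1.75, SE 0.39 and 0.42), and STF2 rose 2.37-fold. INH1, STF1 and STF2 span 258, 261 and 255 bases and shared the wide spread of short genes. SHH3, a paralog of SDH3, was below background in all 3 wild-type arrays and rose at least 3.55-fold. SHH4, the paralog of SDH4, had a log2 difference of -0.04 (limma adjusted p = 0.696).

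All 4 assembly factors of complex II had positive differences and 3 rose, with a median log2 difference of 1.14. SDH6, needed to mature the iron-sulfur subunit, rose 4.02-fold (log2 difference 2.01, SE 0.45), SDH8, which chaperones the flavoprotein, 2.41-fold and SDH5, which adds its flavin, 2.01-fold. SDH7 had a log2 difference of 0.97 (limma adjusted p = 0.0506). For complex III, 2 of 6 factors rose, MZM1 by 1.44-fold and CYT2, the heme lyase of cytochrome c1, by 1.24-fold, and the median was 0.26. None of the 6 was called after array centring. CYC3, the heme lyase of cytochrome c, rose 1.32-fold and CYC2 1.23-fold, and centring ended the call of CYC3 (0.25, adjusted p = 0.0678).

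Of 27 assembly factors of complex IV, 8 rose (29.6%) and 4 fell, where 39.6% and 19.8% of all genes did. Centring the arrays gave 6 and 5, where 27.2% and 33.1% of all genes were called. Each of these counts lay below the share of all genes. Their median log2 difference was 0.40. RCF2, a supercomplex factor, rose 2.29-fold, COX20, a chaperone of the Cox2 subunit, 1.96-fold and PET100 1.95-fold. OXA1, the insertase for mitochondrially made subunits, fell 1.29-fold, COX18 1.24-fold and COX10, of heme A synthesis, 1.18-fold. For the ATP synthase, 5 of 9 factors rose and 2 fell, or 2 and 2 after centring. ATP22, needed for translation of the Atp6 subunit, rose 1.46-fold, INA22 1.43-fold and INA17 1.29-fold. Centring ended the call of INA17 (0.21, adjusted p = 0.0813). So the subunit genes of complexes III and IV and of the ATP synthase had medians of 1.0, 0.97 and 0.86, against 0.26, 0.40 and 0.21 for their assembly factors. This gap was not tested.

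Among 15 factors for the expression of mitochondrial mRNAs, 4 rose and 2 fell, and centring the arrays gave 2 and 4. Their median was 0.12. NCA3, known for its part in ATP6 and ATP8 mRNA expression, read 12.69, 12.60 and 12.70 in the deletion arrays and 6.68, 6.49 and 6.86 in the wild-type arrays, a 63.6-fold rise (log2 difference 5.99, SE 0.10). Background in those wild-type arrays was 6.60, 6.23 and 6.51, so the size of this fold rests on values near background. AEP1 rose 1.32-fold and MSS51, an activator of COX1 translation, fell 1.29-fold, and centring ended the call of AEP1 (0.24, adjusted p = 0.0618). Of 10 ubiquinone synthesis genes 2 rose and 3 fell, or 1 and 4 after centring, with COQ4 1.33-fold higher, COQ2 1.33-fold lower and CAT5 (COQ7) 1.21-fold lower. Of 8 heme synthesis genes 3 rose and 2 fell, or 2 and 5 after centring. HEM1, the first enzyme of the pathway, rose 1.60-fold, HEM3 1.39-fold and HEM2 1.23-fold, and centring ended the call of HEM2 (0.15, adjusted p = 0.0962). The median log2 difference was -0.02 for the ubiquinone genes and -0.10 for the heme genes.

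All 6 other enzymes that hand electrons to ubiquinone or use cytochrome c were called, 3 in each direction, with the same split after centring. Of all genes, 39.6% were called higher and 19.8% lower, or 27.2% and 33.1% after centring. CYB2, the L-lactate dehydrogenase, rose 2.06-fold, GUT2, the glycerol-3-phosphate dehydrogenase, 1.89-fold and CCP1, cytochrome c peroxidase, 1.80-fold. PUT1, proline oxidase, fell 1.71-fold, DLD1, the D-lactate dehydrogenase, 1.65-fold and DLD2 1.36-fold.

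**Figure D5:**
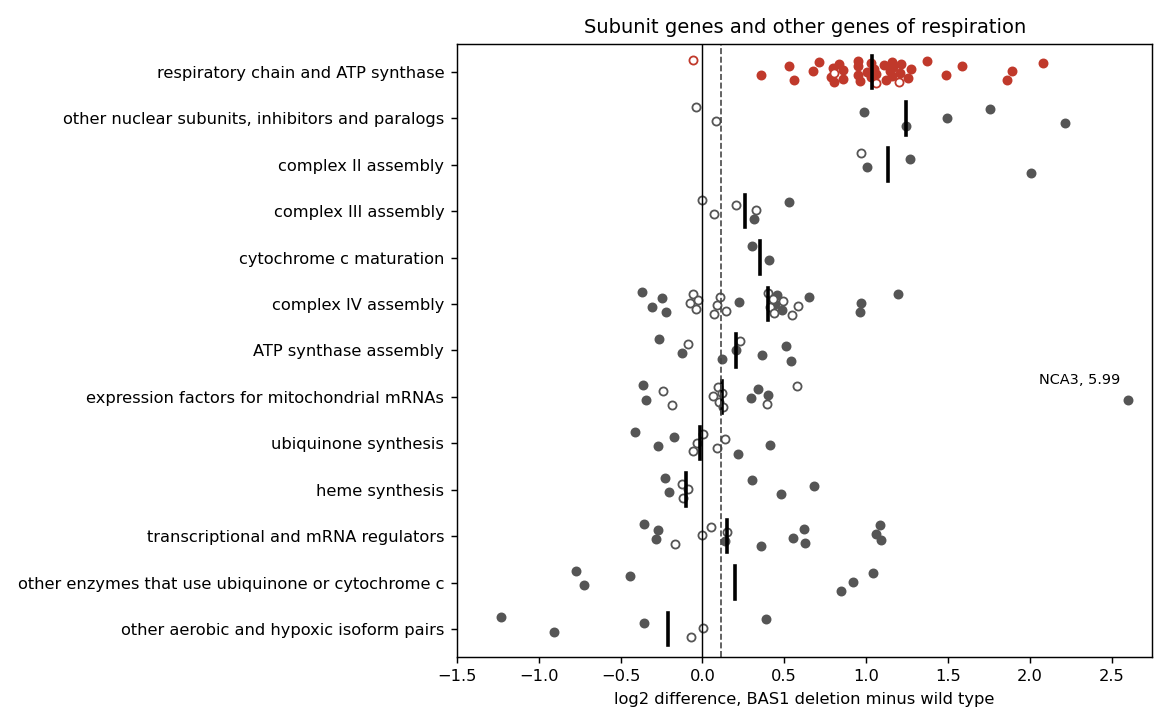
Log2 difference, BAS1 deletion minus wild type, of the 40 subunit genes (red) and of each list of other genes of respiration (grey), with bars at the medians; filled points were called by limma and open points were not, and the dashed line marks the median of all genes, 0.11. The subunit genes centre on 1.04 and NCA3, at 5.99, is drawn at the right edge, off scale.

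Of 15 regulators of these genes, 8 were called higher and 3 lower, and centring the arrays gave 6 and 4. Over all genes 39.6% were called higher and 19.8% lower, and after centring 27.2% and 33.1%. HAP4, the activating and glucose-sensitive subunit of the Hap complex, read 12.76, 12.78 and 12.74 in the deletion arrays and 12.18, 12.25 and 12.19 in the wild-type arrays, a 1.47-fold rise (log2 difference 0.55, SE 0.04, limma adjusted p = 1.1e-04). HAP2, HAP3 and HAP5 encode its DNA-binding subunits. HAP3 read 11.05, 10.87 and 11.07 in the deletion arrays and 10.05, 10.08 and 9.59 in the wild-type arrays, a 2.13-fold rise. HAP5 rose 1.54-fold, and HAP2 rose 1.28-fold, a call that ended after centring (0.20, adjusted p = 0.0566), quantile normalization (0.12, adjusted p = 0.214) or cyclic loess (0.17, adjusted p = 0.110). The deletion arrays lay above the wild-type arrays without overlap for all 4 Hap genes, as they did for 43.7% of all genes.

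CAT8 and ADR1, activators of genes for non-fermentable carbon sources, rose 2.13-fold and 2.08-fold. MIG1, the glucose repressor, fell 1.22-fold, and its kinase SNF1 had a log2 difference of 0.05 (limma adjusted p = 0.322). ROX1, the repressor of hypoxic genes, read 12.41, 12.26 and 12.30 in the deletion arrays and 11.70, 11.66 and 11.75 in the wild-type arrays, a 1.54-fold rise. TUP1 and CYC8, which encode the corepressor that Rox1 and Mig1 use, fell 1.28-fold and 1.21-fold. MOT3, another repressor of hypoxic genes, had a log2 difference of -0.17 (limma adjusted p = 0.0849) and was called lower after centring (-0.32, adjusted p = 0.0138). HAP1 had a log2 difference of 0.15 (limma adjusted p = 0.0730) and PUF3, which binds mRNAs of mitochondrial proteins, one of -0.0004 (limma adjusted p = 0.998). PUF3 was called lower after quantile normalization (-0.62, adjusted p = 0.0049) and cyclic loess (-0.34, adjusted p = 0.0376). RDS2 passed narrowly (log2 difference 0.14, limma adjusted p = 0.0497), and turned to -0.02 after centring. Within the low-spike arrays the calls of HAP2, TUP1, CYC8, MIG1 and RDS2 ended, with adjusted p of 0.0540, 0.0685, 0.0829, 0.0576 and 0.255. These are levels of mRNA, and the activity of the factors was not measured.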

How the data were processed

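Biotin-labelled RNA of 6 samples was read on Affymetrix arrays, as the labels' protocols state. What the authors deposited is a linear intensity for each probe set on each array. R 2.8.0, affy and RMA appear in the submitters' processing notes, and other steps are not given in the sources used here. Intensities were converted to log2. A single gene of the RefSeq R64 table was annotated for 5498 of 10928 probe sets, giving 5449 genes (where several, the probe set brightest on average). Background was the 95th percentile of 1746 probe sets outside that table, pooled (6.23) or for each array, whichever was higher. The test was that of limma 3.58.1, run in R 4.3.3 (group only, threshold 0.05 after Benjamini-Hochberg adjustment over all genes), a procedure tested on simulated data. Standard errors are limma's moderated ones for single genes, and come from the 2 group variances for ratios. The number of arrays limits the precision. No 2 arrays held identical values.

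Members, lists and the naming rule were chosen with earlier results of these data known. All 40 members are named; per-array values were set for the NADH dehydrogenases, complex II, cytochromes c, COX5A, COX5B, and the 2 largest and 2 smallest differences in each other complex, and from the lists up to 3 called genes, all regulators and all isoform pairs. Per-array values of ATP15, ATP18, ATP19, COX9, NCA3 and some Hap genes were added after the values were seen. Alternatives were other normalizations, probe set and filter rules, a variance trend, array weights, blocks, a threshold of 0.01 and leaving out each replicate. Sequences were not used here.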

Additional observations from a re-analysis of the deposited data

How the results depend on the processing

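BAS1 was called lower in all alternatives run. The 36 genes called higher became 31 within the low-spike arrays, 39 within the high-spike arrays or with spike level as a block, and 34 to 36 with 1 array left out. Each within-spike comparison sets 2 arrays of one strain against a single array of the other, assumed to vary like the rest. These and the joint omission of deletion replicate 2 and wild-type replicate 3 were chosen after seeing the data. None of the 40 genes was called lower under any alternative run. Deviations of same-numbered arrays correlated at 0.44, -0.51 and -0.44. Deletion array 2 correlated with wild-type array 3 at 0.75, and deletion array 3 with wild-type array 2 at 0.46. The other pairs of unlike number ran from -0.53 to 0.14. With 3 arrays in each strain these values cannot show whether samples were paired. With the replicate number as a block 34 genes were called higher, and COX7 and COX9 lost their call (adjusted p of 0.0740 and 0.0845). Both also lost it at the stricter threshold of 0.01, by construction. Within the low-spike arrays QCR7, QCR9, COX9, COX12 and ATP17 lost it as well as CYC7, and ATP15 gained one.

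Group medians moved by more than the spread between replicates after array centring (1.12 for the NADH dehydrogenases, 1.21 for complex II, 0.85 for complex III, 0.70 for the ATP synthase), quantile normalization (1.15 for the NADH dehydrogenases), spike level as a block (0.97 for the ATP synthase), within the low-spike arrays (1.37 for the NADH dehydrogenases) and within the high-spike arrays (1.2 for complex IV, 1.03 for the ATP synthase). With 1 array left out they ran from 0.85 to 1.05 for complex III and from 0.79 to 0.97 for the ATP synthase. All stayed above 0.

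The uncalled COX5B difference turned positive with spike level as a block (0.029) and within the high-spike arrays (0.26), and ran from -0.22 to 0.15 with 1 array left out. Of the 115 other genes, quantile normalization called 30 higher and 37 lower, against 46 and 22. The lower calls were 6 within the low-spike and 11 within the high-spike arrays, and 14 at 0.01. Directions of small differences turned for HAP1 after centring (-0.0062), for SNF1 after centring, quantile normalization and loess (-0.10, -0.053, -0.018), for RDS2 likewise (-0.019, -0.15, -0.082), for PUF3 with array weights (0.036) and within the high-spike arrays (0.016), and for HYP2 after centring (-0.15), with array weights (-0.026), within the high-spike arrays (-0.0060) and without deletion replicate 2 and wild-type replicate 3 (-1.0e-05). With 1 array left out PUF3 ran from -0.078 to 0.11 and HYP2 from -0.025 to 0.020. The cause was not tested.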
